A study of Mus musculus with 6 samples.

Results

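Aminoacyl-tRNA synthetases are the enzymes that join each amino acid to its transfer RNA. Their transcripts were followed in mouse livers after vehicle or after iD1, a compound for which the sources used here give a code name alone. The 36 genes were taken by symbol from a fixed list, 20 for enzymes of the cytosol and 16 for enzymes of mitochondria, and the rule of choice uses no measured value, although earlier results of these data were known when the list was made. All 36 were found among the 34866 genes of the count table, and all 36 were among the 13718 genes with enough counts to be tested. Of the 36, none was called higher and 1, the mitochondrial glutamyl enzyme Ears2, was called lower with iD1. That is 2.78%, against 16.7% of all tested genes. A gene that was not called may still differ by less than these libraries resolve.

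The animals were male C57BL/6 mice, 8 weeks old, had free access to food on a light-dark cycle, and received the injection into the peritoneum. There were 3 libraries of polyadenylated liver RNA for each group, and the labels state neither dose, exposure time nor target of iD1. Vehicle samples carry the treatment label untreated, while their titles name a vehicle. One vehicle column has a number found in none of the sample titles and is called the unnumbered vehicle replicate. Separate animals are not stated as the source of the libraries in a group, so each p-value measures only the spread over these samples, which may be technical.

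Every codon that a ribosome reads needs a charged transfer RNA, so the cytosolic synthetases are housekeeping enzymes of protein synthesis, which is heavy in a liver that secretes plasma proteins. A separate nuclear-encoded set charges the transfer RNAs of the mitochondrial genome, whose messages encode subunits of the respiratory chain. When charging falls short, uncharged transfer RNA activates the kinase GCN2, which phosphorylates the initiation factor eIF2 and raises translation of the transcription factor ATF4. Many cytosolic synthetase genes are known as ATF4 targets, together with genes of amino acid synthesis and transport.

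The known ATF4 link makes the start of these genes worth seeing. A promoter from RefSeq (GRCm38.p6, 250 bases before to 50 after the gene's start) was matched for 27 of the 36 synthetases. Not matched, and so not searched, were Cars, Hars, Lars, Nars, Rars, Vars, Wars, Hars2 and Pars2, most of them cytosolic. The core of the C/EBP-ATF response element, the site that ATF4 binds together with C/EBP proteins, was searched as TGATGNAA on both strands, so also as TTNCATCA. It occurred in the promoters of 5 synthetases, which is 18.5% of those matched, against 4.51% of the 27025 genes of the promoter table. All 5 encode cytosolic enzymes, and Gars gives the mitochondrial glycyl enzyme as well. A match is a description of letters and not of binding. The 30 bases around the match follow for 4 of the 5, Gars, Tars, Iars and Yars, read 5′ to 3′ on the strand of the gene, with the match in capitals. They are shown beside 5 genes of the ATF4 branch that hold the same core and that were called higher in these livers.
Gars: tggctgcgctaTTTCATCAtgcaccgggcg
Tars: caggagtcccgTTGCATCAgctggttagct
Iars: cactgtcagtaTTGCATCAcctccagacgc
Yars: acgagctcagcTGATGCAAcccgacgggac
Chac1: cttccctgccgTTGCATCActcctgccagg
Atf3: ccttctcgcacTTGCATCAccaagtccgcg
Fgf21: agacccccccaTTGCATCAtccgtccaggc
Asns: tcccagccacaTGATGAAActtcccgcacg
Herpud1: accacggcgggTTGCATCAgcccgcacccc

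These windows lie, in the same order, at chr6:55037960-55037989 (plus strand), chr15:11399655-11399684 (minus), chr13:49682126-49682155 (plus) and chr4:129189895-129189924 (plus) for the synthetases. Those of the ATF4 branch lie at chr2:119351038-119351067 (plus), chr1:191183425-191183454 (minus), chr7:45615611-45615640 (minus), chr6:7693214-7693243 (minus) and chr8:94386306-94386335 (plus). The matches of Gars and Tars lay 30 and 15 bases before the start, and those of Iars and Yars began 8 and 4 bases inside the gene. Among the windows printed, Tars, Iars, Chac1, Atf3, Fgf21 and Herpud1 share the identical core, TTGCATCA, and Yars holds its reverse complement. Nupr1 and Vldlr, also of the ATF4 branch but not printed, hold TTGCATCA too and were not called.

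Libraries held from 23515571 to 37613549 estimated counts. Levels are given as CPM, the usual depth-scaled count, on library sizes scaled by TMM factors, which ran from 0.878 in iD1 replicate 2 to 1.11 in vehicle replicate 1. Differences are log2 fold changes of iD1 over vehicle from edgeR's quasi-likelihood test with their standard error (SE), and a gene is called where the Benjamini-Hochberg adjusted p over all tested genes is below 0.05. Hepatocyte markers such as Alb dominated every library, with summed levels of 75166 to 100007 CPM in vehicle and 98571 to 111584 CPM in iD1. These levels match the labelled tissue, and 3 of the 7 were called higher. The summed level of the neutrophil markers was 0.651 to 0.965 CPM in vehicle and 2.74 to 10.4 CPM in iD1, with 3 of 4 tested markers called higher, 6 listed and Ngp and Ly6g too low to test. That of the endothelial markers was 135 to 177 CPM in vehicle and 96.1 to 130 CPM in iD1, with 0 of 6 called. The part of these shifts in the values below was not tested. In whole-liver RNA, fewer cells of a type and less RNA per cell cannot be told apart.

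Among all tested genes, 16.7% were called, 8.42% higher and 8.3% lower with iD1. Of the 36 synthetases 1 was called, which is 2.78%. None of the 20 cytosolic enzymes was called in either direction by edgeR, DESeq2 or limma-voom, and 1 of them, the seryl enzyme Sars, had an unadjusted p below 0.05 in edgeR's test. Their log2 fold changes lay between -0.24 and 0.31, with a median of 0.09, against a median of 0.00 for all genes. The median size of the difference, without its sign, was 0.115 on the log2 scale for the cytosolic enzymes, against 0.281 for all tested genes. Precision depends on the level, so the cytosolic enzymes are also read beside the 5158 genes within their own range of 13.1 to 145 CPM in vehicle. Of those genes 19.4% were called, and their median size was 0.211. Their median log2 fold change with its sign was 0.04, nearer to the 0.09 of the cytosolic enzymes than that of all genes.

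**Figure D1:**
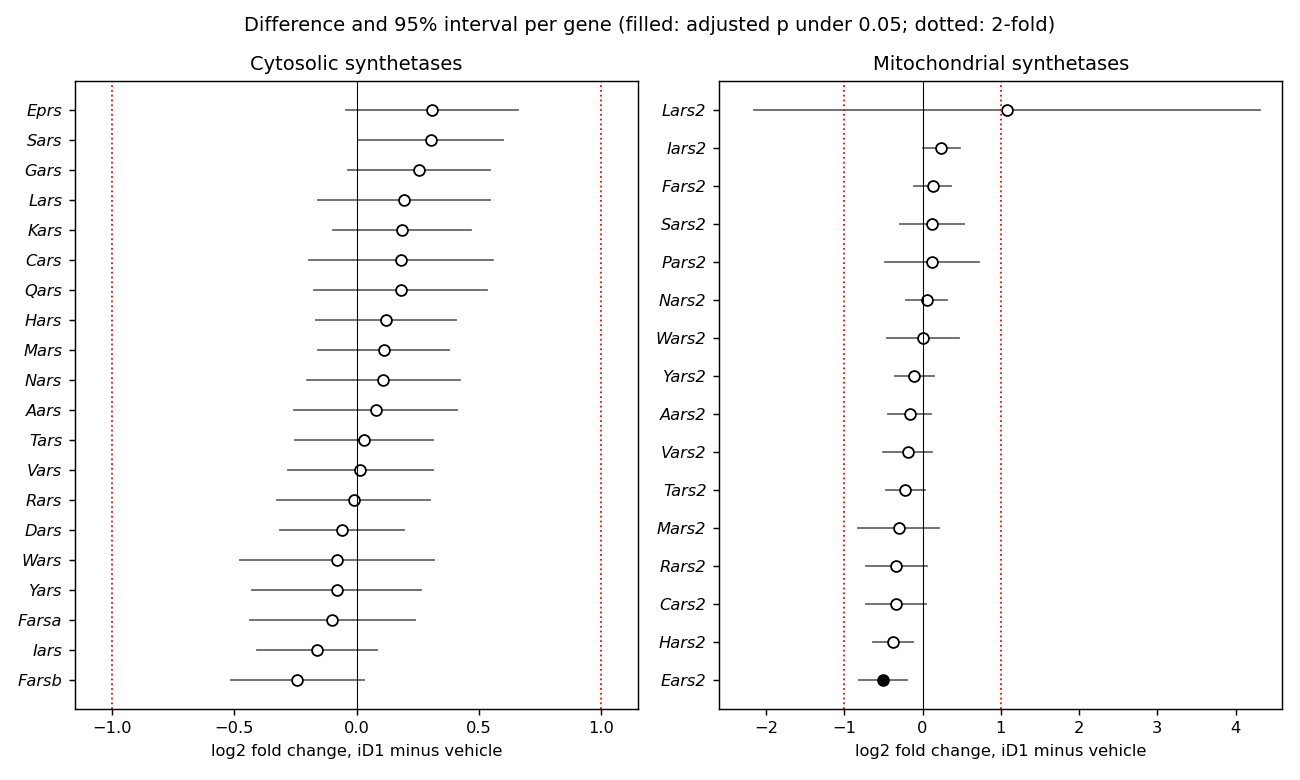
Log2 fold change of iD1 over vehicle for each cytosolic (left) and mitochondrial (right) synthetase, with the 95% interval of edgeR's quasi-likelihood fit as a line, filled where the adjusted p is below 0.05, and dotted lines at a 2-fold difference. The points of the 20 cytosolic enzymes and their intervals lie inside the dotted lines, Ears2 is the filled point, and the interval of Lars2 spans from -2.16 to 4.31.

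The intervals say how large a difference these libraries still allow. For the 20 cytosolic enzymes, the 95% intervals ran from 0.700-fold to 1.58-fold at their outer ends, so each of the 20 lay within a 2-fold difference in either direction, and 18 lay within 1.5-fold. The groups failed to overlap in 2 of the 20, which is 10%, against 37.2% of all tested genes. These were Gars, higher in every iD1 library, and Farsb, lower in every iD1 library. At 3 libraries per group, the smallest p of an exact permutation test on 1 gene is 0.1.

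Of the cytosolic enzymes, 8 are subunits of the multisynthetase complex, a large assembly in the cytosol: Eprs, Iars, Lars, Mars, Qars, Rars, Kars and Dars. None of these 8 was called and in none did the groups separate. Among all tested genes, 16.7% were called and the groups separated in 37.2%. With only 8 genes, the lack of a call says little about the complex. Eprs, a single protein that charges both glutamate and proline, had the largest difference of the cytosolic set. Its level was 86.9, 102 and 112 CPM in vehicle replicates 1, 2 and the unnumbered one, and 102.5, 146 and 124 CPM in iD1 replicates 1 to 3. The ranges overlapped through iD1 replicate 1, and the log2 fold change was 0.31 (SE 0.16, adjusted p = 0.212). Kars, whose gene gives both the cytosolic and the mitochondrial lysyl enzyme, had 31.1, 34.8 and 33.6 CPM in vehicle and 32.6, 42.2 and 38.5 CPM in iD1. The iD1 replicate 1 library lay within the vehicle range, and the log2 fold change of Kars was 0.19 (SE 0.13, adjusted p = 0.349).

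The other subunits of the complex had differences between -0.16 and 0.19. Log2 fold changes were 0.19 for the leucyl enzyme Lars, 0.18 for the glutaminyl enzyme Qars and 0.11 for the methionyl enzyme Mars. They were -0.01 for the arginyl enzyme Rars, -0.06 for the aspartyl enzyme Dars and -0.16 for the isoleucyl enzyme Iars. Exons of Mars share 68 bases on opposite strands with those of Ddit3, a stress gene called higher here, and the sources used here do not state whether counting used the strand. Iars has a processed pseudogene, Gm4849, with 96.0% identity over 1656 bases, so its value is less certain than the others.

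The complex also holds 3 scaffold proteins without synthetase activity, and 0 of the 3 were called, against 16.7% of all tested genes. Eef1e1, which encodes the scaffold AIMP3, had the smallest p of the 3 scaffolds. It went from 9.38 ± 1.20 CPM to 6.86 ± 0.298 CPM (SD, n = 3 each), with a log2 fold change of -0.45 (SE 0.14, adjusted p = 0.0611). With library size only or upper-quartile factors it was called lower. Aimp1 had a log2 fold change of 0.25 (adjusted p = 0.356).

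Outside the complex, Gars is the glycyl enzyme, and its single gene serves cytosol and mitochondria alike. It had 30.57, 22.9 and 26.7 CPM in vehicle and 31.2, 33.7 and 30.65 CPM in iD1. The lowest iD1 library and the highest vehicle library differed by less than 0.1 CPM, so the groups separate only barely. The log2 fold change of Gars was 0.25 (SE 0.13, adjusted p = 0.215). Wars, the tryptophanyl enzyme and an interferon-inducible gene, had 13.9, 13.4 and 12.0 CPM in vehicle and 12.8, 15.2 and 9.15 CPM in iD1. The iD1 libraries hold both its highest and its lowest value, and its log2 fold change was -0.08 (SE 0.18, adjusted p = 0.800).

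Of the other enzymes outside the complex, a few are named after their values were seen. Sars had 34.9, 30.03 and 32.9 CPM in vehicle and 34.4, 45.3 and 40.9 CPM in iD1, with a log2 fold change of 0.30 (SE 0.13, adjusted p = 0.148), the smallest adjusted p of the cytosolic set. Phenylalanyl synthetase is built of alpha and beta subunits from separate genes. The beta subunit gene Farsb had 26.98, 26.97 and 30.7 CPM in vehicle and 22.2, 26.6 and 22.7 CPM in iD1, and all iD1 values lay below all vehicle values. Its log2 fold change was -0.24 (SE 0.12, adjusted p = 0.206), beside -0.10 (SE 0.15) for the alpha subunit gene Farsa, whose groups overlapped. Farsb was called lower with library size only (adjusted p = 0.0258).

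The remaining 7 enzymes outside the complex had log2 fold changes from -0.08 for the tyrosyl enzyme Yars to 0.18 for the cysteinyl enzyme Cars. In between lay the valyl enzyme Vars (0.02), the threonyl enzyme Tars (0.03), the alanyl enzyme Aars (0.08), the asparaginyl enzyme Nars (0.11) and the histidyl enzyme Hars (0.12). Aars shares 1326 exon bases on the same strand with Exosc6, which lies inside the annotated Aars transcript, so its level can include reads of that gene. The enzymes fall into classes I and II by the fold of their catalytic domain, and neither class held a called cytosolic gene: the medians were 0.02 for 9 of class I and 0.09 for 10 of class II. Eprs carries a domain of each class and was counted in neither.

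**Figure D2:**
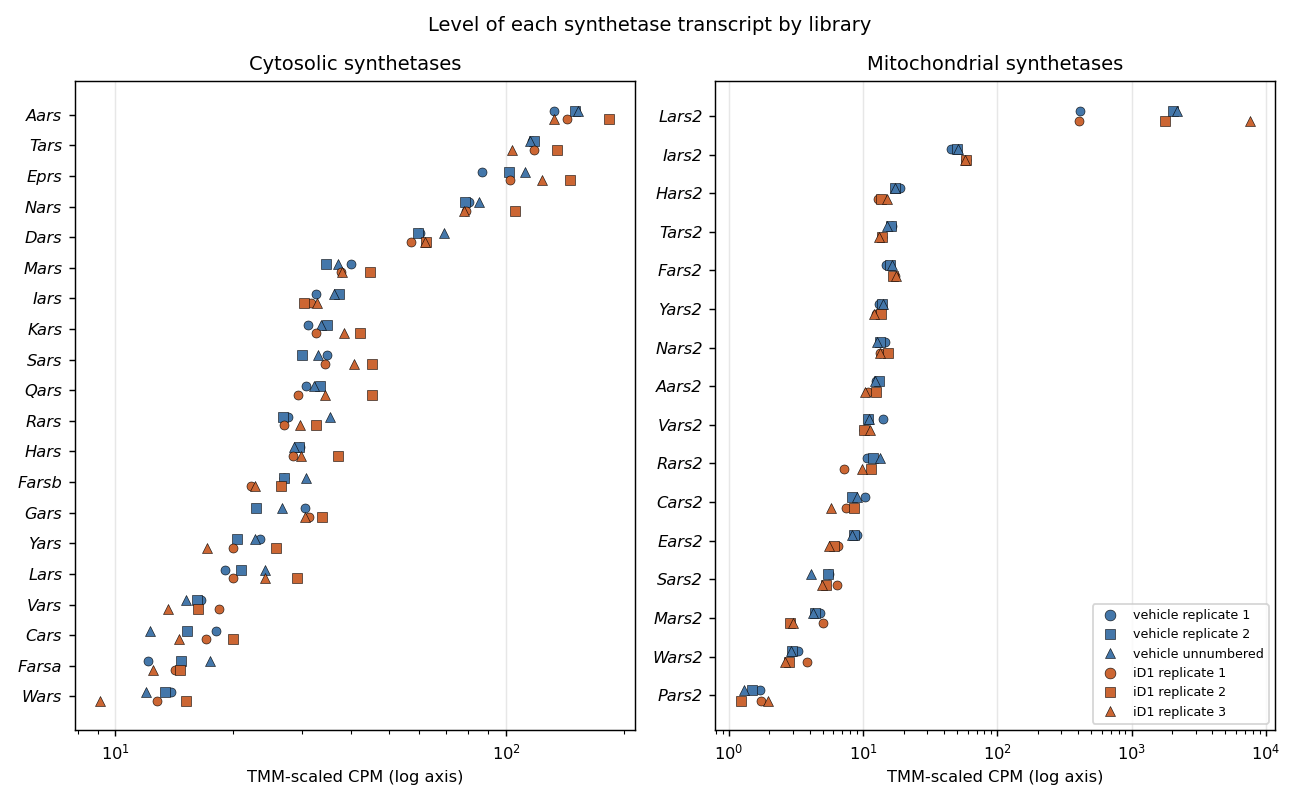
Level of each synthetase in every library, in CPM on a log axis, with vehicle libraries in blue and iD1 libraries in orange and the cytosolic and mitochondrial enzymes in separate panels. Most rows show both colours mixed within a narrow band, Ears2 and Hars2 show all iD1 points to the left of the vehicle points, and Lars2 stretches from 408 to 7602 CPM.

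The small positive median of the cytosolic set rested on 1 library. The highest level among the 6 libraries was that of iD1 replicate 2 in 14 of the 20 cytosolic enzymes, and this library has the lowest TMM factor. With library size only it was highest in 5 of 20. The summed level of the 20 genes was 863, 884 and 932 CPM in vehicle and 878, 1091 and 888 CPM in iD1, so that 2 of the 3 iD1 libraries lay within the vehicle range. Positive log2 fold changes numbered 13 of 20. They numbered 8 of 20, with a median of -0.04, without iD1 replicate 2. With library size only they numbered 3 of 20, with a median of -0.11, where the median of all genes also shifted, to -0.20. Relative to all genes the cytosolic median was 0.09 under TMM and under library size only, and -0.02 without iD1 replicate 2.

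The mitochondrial enzymes gave the single call. Of 16 enzymes, 0 were called higher and 1 lower, which is 6.25%. Among all tested genes, 16.7% were called and 8.3% were called lower, so the 1 lower call is near that share. The median log2 fold change of the 16 was -0.13, or -0.16 without Lars2, whose values are described separately. The groups did not overlap in 5 of the 16, 2 higher and 3 lower with iD1, which is 31.2% against 37.2% of all tested genes. Without Lars2, the 95% intervals of the other 15 ran from 0.565-fold to 1.66-fold at their outer ends and lay within a 2-fold difference in all 15.

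Ears2 encodes the mitochondrial glutamyl-tRNA synthetase, which in mammalian mitochondria also places glutamate on the transfer RNA for glutamine. The gene, ENSMUSG00000030871, lies at chr7:122037213-122067263 on the minus strand (GRCm38, GENCODE M21). Its level was 8.95, 8.51 and 8.30 CPM in vehicle and 6.53, 6.08 and 5.53 CPM in iD1. Each iD1 library lay below each vehicle library, and the libraries within a group were close together. The log2 fold change was -0.50 (SE 0.14), with a 95% interval from 0.570-fold to 0.872-fold and an adjusted p of 0.0340.

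This call rests on all but 1 of the libraries. The adjusted p was 0.0902 without vehicle replicate 1, 0.0854 without vehicle replicate 2, 0.0858 without the unnumbered vehicle replicate, 0.0775 without iD1 replicate 2 and 0.119 without iD1 replicate 3. It was 0.0332 without iD1 replicate 1. The log2 fold change stayed between -0.56 and -0.44 in these 6 fits. Exons of Ears2 share 89 bases on opposite strands with those of Ubfd1, which had a log2 fold change of -0.21 (SE 0.13, adjusted p = 0.299).

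The misplaced glutamate is turned into glutamine by a mitochondrial amidotransferase of 3 subunits, encoded by Gatb, Gatc and Qrsl1, and none of the 3 was called. Gatb had a log2 fold change of 0.02 (SE 0.11), Gatc of -0.20 (SE 0.11) and Qrsl1 of -0.30 (SE 0.19). All iD1 values of Gatc and Qrsl1 lay below all vehicle values, and those of Gatb overlapped. Among all tested genes, 18.7% were likewise lower in every iD1 library than in every vehicle library.

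Hars2, the mitochondrial histidyl enzyme, lay just outside the threshold. It had 18.8, 17.3 and 17.4 CPM in vehicle and 12.8, 13.6 and 14.95 CPM in iD1, with no overlap. The log2 fold change was -0.37 (SE 0.11), with an adjusted p of 0.0523, and the gene was called under library size only and under upper-quartile factors. Its exons share 195 bases on opposite strands with those of Hars, the cytosolic enzyme for the same amino acid, which had 29.7, 29.5 and 28.7 CPM in vehicle and 28.5, 37.2 and 29.8 CPM in iD1.

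Next in size among the uncalled enzymes were those for cysteine, arginine and methionine. Cars2 had 10.4, 8.24 and 9.07 CPM in vehicle and 7.42, 8.51 and 5.80 CPM in iD1, with a log2 fold change of -0.34 (SE 0.17, adjusted p = 0.205). Rars2 had 10.7, 11.8 and 13.3 CPM in vehicle and 7.21, 11.4 and 9.80 CPM in iD1, with a log2 fold change of -0.33 (SE 0.18, adjusted p = 0.227). In both genes iD1 replicate 2 lay within the vehicle range. Mars2 had 4.79, 4.41 and 4.23 CPM in vehicle and 4.998, 2.85 and 3.02 CPM in iD1, with a log2 fold change of -0.31 (SE 0.23, adjusted p = 0.403). Here iD1 replicate 1 was the highest of all 6 libraries.

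Of the other enzymes, those whose groups did not overlap are named after their values were seen. Iars2, the isoleucyl enzyme, had 45.4, 50.1 and 51.0 CPM in vehicle and 58.0, 57.9 and 57.3 CPM in iD1, with a log2 fold change of 0.24 (SE 0.11, adjusted p = 0.151). The 3 iD1 values lay within 1 CPM of each other and above every vehicle value. Iars2 shares 2034 exon bases on opposite strands with Rab3gap2. Fars2, the phenylalanyl enzyme, was higher in every iD1 library with a log2 fold change of 0.13, and Tars2, the threonyl enzyme, was lower in every one with -0.22, and neither was called.

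The mitochondrial enzymes for alanine, asparagine, proline, serine, tryptophan, tyrosine and valine (Aars2, Nars2, Pars2, Sars2, Wars2, Yars2 and Vars2) had overlapping groups and no call. Their log2 fold changes ran from -0.19 for Vars2 to 0.13 for Sars2. Leaving out Lars2, the summed level of the mitochondrial enzymes was 195, 194 and 193 CPM in vehicle and 187, 192 and 184 CPM in iD1. Each iD1 sum was lower than each vehicle sum, but only barely: the closest were 193.0 CPM (unnumbered vehicle replicate) and 191.5 CPM (iD1 replicate 2). Single genes were lower in every iD1 library in 18.7% of those tested. The like share for sums was not computed, and sums depend on the scaling, so nothing is read from this order. The median relative to all genes was -0.16 and stayed negative, between -0.18 and -0.10, under each of the scalings, tests and single libraries left out.

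Lars2, the mitochondrial leucyl-tRNA synthetase, stood apart from every other synthetase in its level and in its spread. The gene, ENSMUSG00000035202, lies at chr9:123366927-123462666 on the plus strand (GRCm38, GENCODE M21). It had 410, 2036 and 2194 CPM in vehicle and 408, 1781 and 7602 CPM in iD1. The highest library, iD1 replicate 3, was 18.6 times the lowest, iD1 replicate 1, and the lowest libraries of the groups were nearly equal. The other 35 synthetases had ratios of highest to lowest library between 1.16 and 1.84.

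The spread left the group difference of Lars2 unresolved. The log2 fold change was 1.08 (SE 1.24), with a 95% interval from -2.16 to 4.31 and an adjusted p of 0.614. Without iD1 replicate 3 it was -0.50 (adjusted p = 0.824), so the sign rests on that library. Of the 833 tested genes with at least 100 CPM in every library, only Lars2 and Serpina3n, an acute-phase protease inhibitor, had a ratio of highest to lowest library of 18.6 or more, and the median ratio of the 833 was 1.46. In Serpina3n the iD1 libraries lay above all vehicle libraries, whereas in Lars2 each group held a low and a high library.

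The estimated counts of Lars2 ran from 10118 in iD1 replicate 1 to 163722 in iD1 replicate 3. Lars2 alone made up 67.7% to 97.6% of the summed level of the 16 mitochondrial enzymes. No annotated gene shared exon bases with Lars2 or a long stretch of near-identical transcript sequence in the sense direction. Only its principal transcript was compared, and only with annotated transcripts. Short, more diverged, antisense or unannotated matches could not be found, so the search does not show whether reads of other RNA were assigned to Lars2. What lies behind the spread was not tested.

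**Figure D3:**
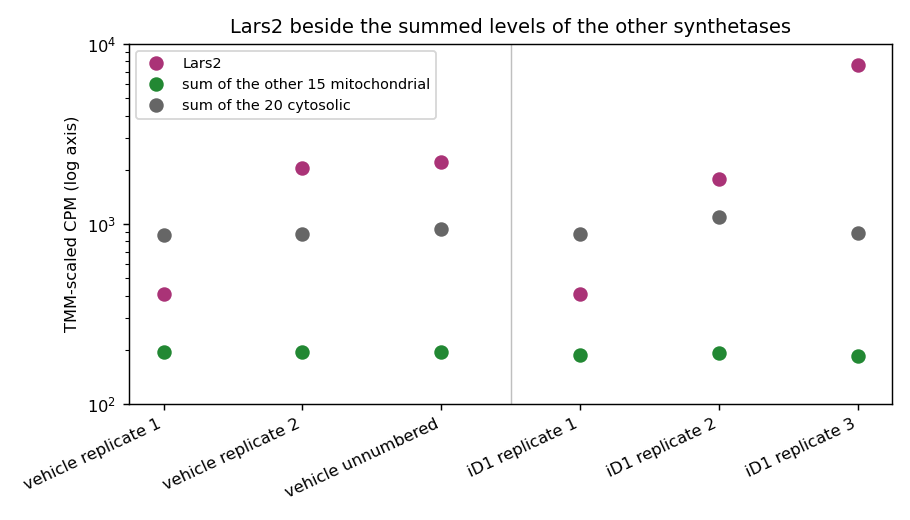
Level of Lars2 by library, beside the summed level of the other 15 mitochondrial enzymes and of the 20 cytosolic enzymes, in CPM on a log axis. Lars2 runs from 408 to 7602 CPM, with a low and a high library in each group, while both sums stay nearly level over the 6 libraries.

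Levels of different genes can be compared only per length, here as CPM per kilobase of the annotated principal transcript. After Lars2 (397 ± 254 CPM per kilobase in vehicle, SD, n = 3), the order in vehicle was led by Nars (29.6 ± 1.25), Tars (29.0 ± 0.312), Dars (29.0 ± 2.59) and Aars (25.2 ± 1.92). The first 3 of these do not differ beyond their spread. Eprs followed with 20.4 ± 2.55 and Kars with 16.5 ± 0.947. The highest mitochondrial enzyme other than Lars2 was Iars2 with 8.93 ± 0.545, close to Yars2 with 8.69 ± 0.247, and the lowest of all were Wars2 (0.693), Pars2 (0.681) and Mars2 (0.396). The annotated transcript of Mars2 is the longest of the set, so its value per length depends most on that annotation. In iD1 livers the first 9 places of the order were held by the same genes in the same order. Ears2 stood at place 28 in vehicle and at place 32 in iD1.

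A ratio of 2 genes within a library does not depend on how libraries are scaled. The cytosolic enzyme was therefore divided by its mitochondrial partner for the same amino acid in each library, in 17 pairs in which Eprs is paired with both Ears2 and Pars2, and both subunits of the cytosolic phenylalanyl enzyme with Fars2. The CPM of the cytosolic gene exceeded that of its partner in every library in 14 of the 17 pairs. Per length, the cytosolic gene was the higher one in 13 of the 17 pairs, by the mean ratio in vehicle. Values below are ratios of CPM, not corrected for length.

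The ratio was higher in every iD1 library than in every vehicle library in 6 pairs, lower in 2 and overlapping in 9. Single genes separate the groups in 37.2% of all those tested, and the like share for ratios of genes was not computed, so nothing is read from this count. The largest difference was that of Eprs over Ears2, with 9.71, 12.0 and 13.5 in vehicle and 15.7, 23.97 and 22.4 in iD1, a difference of 0.81 on the log2 scale. Cars over Cars2 went from 1.74, 1.85 and 1.35 to 2.30, 2.35 and 2.50, and Hars over Hars2 from 1.58, 1.70 and 1.64 to 2.22, 2.74 and 1.99. The other 3 pairs with higher ratios in every iD1 library were those for alanine, arginine and threonine.

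The isoleucyl pair stood on the opposite side. Iars over Iars2 was 0.718, 0.744 and 0.711 in vehicle and 0.547, 0.525 and 0.573 in iD1, a difference of -0.40 on the log2 scale. Farsb over Fars2 was also lower in every iD1 library. The median difference over the 17 pairs was 0.18, positive in 12. Pairs were described after the fit and carry no test of their own, and no single ratio could reach an exact permutation p below 0.1.

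**Figure D4:**
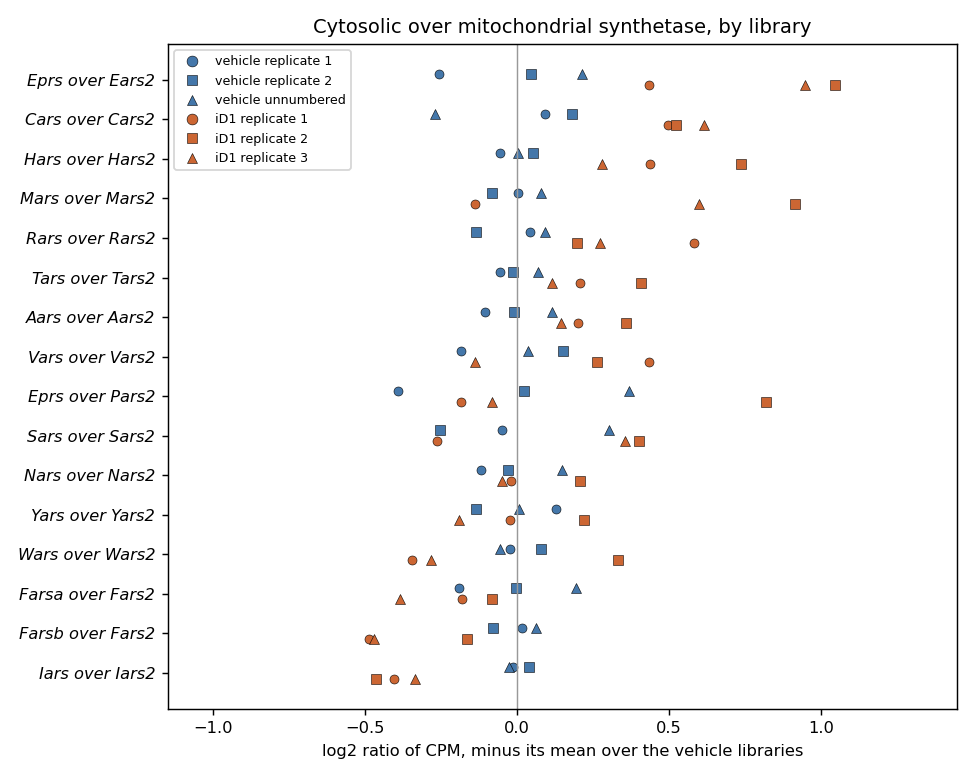
Log2 ratio of the cytosolic to the mitochondrial enzyme for the same amino acid in each library, minus its mean over the 3 vehicle libraries, with vehicle in blue and iD1 in orange, for 16 pairs (Lars over Lars2 left out for its spread). The 3 iD1 points lie to the right of all vehicle points in 6 pairs, with Eprs over Ears2 the farthest, and to the left in Iars over Iars2 and Farsb over Fars2.

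Genes of the ATF4 branch other than the synthetases are given next. Of 27 listed genes without the synthetases, 24 were tested, 15 were called higher and 0 lower. That is 62.5%, against 16.7% of all tested genes, and the median log2 fold change of the 24 was 0.92. The higher calls numbered 11 under library size only, where 1 gene was called lower, and 10 at an adjusted p of 0.01. They numbered 10 when a vehicle library or iD1 replicate 2 was left out, 12 without iD1 replicate 3 and 14 without iD1 replicate 1. Sesn2, a stress-induced inhibitor of mTORC1 that senses leucine, went from 2.87 ± 0.368 to 11.8 ± 3.02 CPM (log2 fold change 2.04, SE 0.21, adjusted p = 0.000499). Fgf21, a hormone secreted by the stressed or fasted liver, went from 0.567 ± 0.300 to 4.44 ± 0.701 CPM, with a log2 fold change of 2.99. Ppp1r15a (GADD34), which brings a phosphatase to eIF2, had a log2 fold change of 1.75, and Cebpb, a partner of ATF4 at its sites, one of 1.74.

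Some further genes of the branch are named for the promoters printed above. Chac1, a glutathione-degrading enzyme, went from 0.620 ± 0.399 to 15.3 ± 8.43 CPM, with a log2 fold change of 4.58 (SE 0.67, adjusted p = 0.00960). Log2 fold changes of genes with the printed core were 2.56 for the transcription factor Atf3, 1.20 for Herpud1, a factor of protein degradation at the endoplasmic reticulum, and 0.94 for Asns, which makes asparagine. The transcript of Atf4 itself, whose control is mostly translational, was not called and had a log2 fold change of -0.27 (SE 0.13, adjusted p = 0.177).

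The promoter core was present in genes of both kinds. Of 24 matched promoters of the ATF4 branch 9 held it, which is 37.5%. Of the 8 tested among these 9 genes, 6 were called higher, beside 15 of the 24 tested in the whole branch. Nupr1 and Vldlr were tested and not called, with log2 fold changes of 0.17 and -0.07. Of the 5 synthetases that held the core, 0 were called, beside 16.7% of all tested genes. With only 5 genes, nothing is read from this count. The 4 shown had log2 fold changes of 0.25 for Gars, 0.03 for Tars, -0.08 for Yars and -0.16 for Iars.

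**Figure D5:**
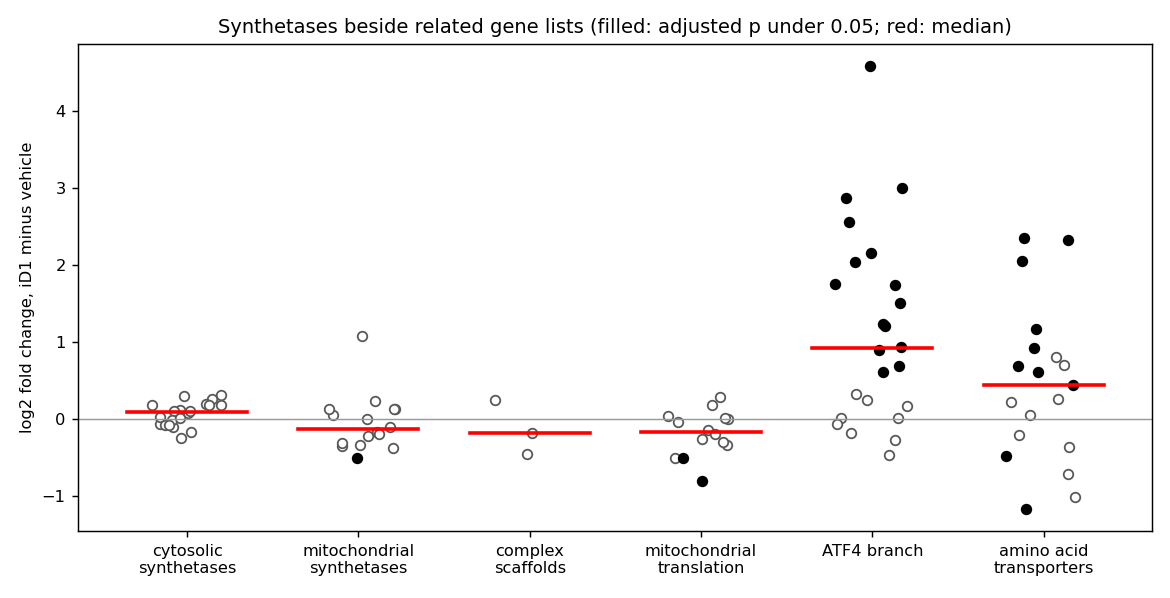
Log2 fold change of every tested gene of the synthetase sets and of 4 of the related lists, 1 point per gene and filled where the adjusted p is below 0.05, with the median of the list as a bar. The cytosolic enzymes form a narrow band around 0 with no filled point, while the ATF4 branch extends from -0.47 to 4.58 with 15 filled points.

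Upstream of ATF4, a list of eIF2 kinases, partners of GCN2, eIF2 alpha and eIF2B subunits had 1 call among 12 tested genes. That is 8.33%, against 16.7% of all tested genes. Impact, an inhibitor of GCN2 activation, went from 8.72 ± 0.778 to 14.1 ± 1.87 CPM (log2 fold change 0.69, SE 0.14, adjusted p = 0.0114). Eif2ak4, which encodes GCN2, had a log2 fold change of 0.14 (adjusted p = 0.477). Under upper-quartile factors or library size only, 1 of the 12 was called lower. Steps around the synthetases held no call: of 10 genes of transfer RNA supply and editing 0 were called. The smallest p-values there belonged to Sepsecs, which completes selenocysteine on its transfer RNA, and Ptrh2, a peptidyl-tRNA hydrolase, with log2 fold changes of -0.32 (adjusted p = 0.0835) and -0.35 (adjusted p = 0.106). With library size only 3 of the 10 were called lower, Sepsecs and Ptrh2 among them, and with upper-quartile factors 1, Sepsecs.

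Transporters bring the substrates of the synthetases into the cell and out of the lysosome. Of 19 amino acid transporters, 8 were called higher and 2 lower, which is 52.6% against 16.7% of all tested genes. Their median log2 fold change was 0.44. Slc7a2, which carries arginine and lysine, went from 174 ± 30.9 to 890 ± 317 CPM (log2 fold change 2.35, SE 0.26). Slc38a2, which carries small neutral amino acids, had a log2 fold change of 2.32, the glycine transporter Slc6a9 one of 1.17 and the lysosomal transporter Slc36a1 one of -1.17. The higher calls numbered 5 under library size only, 5 without vehicle replicate 1, without vehicle replicate 2 or without iD1 replicate 3, and 4 without the unnumbered vehicle replicate. The lower calls numbered 1 without vehicle replicate 2, without the unnumbered vehicle replicate or without iD1 replicate 3.

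Among 15 genes by which mTORC1 senses amino acids, 2 were called higher and 1 lower, which is 20% against 16.7% of all tested genes. The lower calls numbered 2 under upper-quartile factors or library size only. Flcn and Fnip1, whose proteins act together on the Rag GTPases, had log2 fold changes of 1.37 and 0.84. Depdc5, a subunit of the GATOR1 complex, had one of -0.57 and was called in the full set and without iD1 replicate 2, while its adjusted p was 0.0549 to 0.0856 without any other single library.

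Downstream of charging, 1 of 7 cytosolic elongation factors and their modifiers was called higher and 2 lower. That is 42.9%, against 16.7% of all tested genes. Eef2k, the kinase that inhibits elongation factor 2, went from 7.10 ± 0.619 to 3.05 ± 0.582 CPM (log2 fold change -1.22, SE 0.18, adjusted p = 0.00279). Eef2, its target, had 722 ± 66.2 and 1099 ± 58.2 CPM and a log2 fold change of 0.61 (SE 0.15, adjusted p = 0.0234). The call of Eef2 was lost with library size only, and also when 1 of 4 single libraries was left out. Its adjusted p was then 0.0526 for iD1 replicate 2, 0.0819 for iD1 replicate 3, 0.0601 for vehicle replicate 1 and 0.105 for the unnumbered vehicle library. Eef1akmt1, a methyltransferase of elongation factor 1A, had a log2 fold change of -0.69 (adjusted p = 0.0454), and its adjusted p was 0.0889 to 0.146 without any library other than iD1 replicate 2.

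Of 14 mitochondrial translation factors 0 were called higher and 2 lower, which is 14.3% against 16.7% of all tested genes, beside 1 lower of the 16 mitochondrial synthetases. The lower calls numbered 3 with upper-quartile factors and 4 under library size only. Mtif2, the mitochondrial initiation factor, went from 25.8 ± 1.35 to 18.1 ± 2.15 CPM (log2 fold change -0.51, SE 0.12, adjusted p = 0.0222). Mtrf1l, a release factor, went from 4.73 ± 0.705 to 2.71 ± 0.423 CPM (log2 fold change -0.80, SE 0.20, adjusted p = 0.0252). The calls numbered 1 when iD1 replicate 2 or either numbered vehicle library was left out, and 0 when either iD1 replicate 3 or the unnumbered vehicle library was left out. The median log2 fold change of the list was -0.17, close to the -0.16 of the mitochondrial synthetases without Lars2.

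Wars is induced by interferon in many cells, so interferon genes are given beside it. Of 15 tested, 0 were called higher and 3 lower, which is 20% against 16.7% of all tested genes, with a median log2 fold change of -0.35. The lower calls numbered 5 with upper-quartile factors and 6 under library size only. Oasl1 went from 8.50 ± 1.38 to 3.05 ± 0.393 CPM (log2 fold change -1.49, SE 0.18, adjusted p = 0.00113), and Ifit2 and Tap1 had log2 fold changes of -1.24 and -0.80. Both Ifit2 and Tap1 missed the threshold when iD1 replicate 2, iD1 replicate 3 or vehicle replicate 2 was left out. Ifit2 also missed it without the unnumbered vehicle replicate (adjusted p = 0.0526), and Tap1 without vehicle replicate 1 (adjusted p = 0.0893). Wars itself, at -0.08, was not called in the full set or in any of the alternative fits.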

How the data were processed

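The values deposited by the authors are estimated counts for each gene, from stranded poly(A) libraries per the labels' protocols. No source used here names the aligner, quantifier, build or annotation. From 22.6% to 27.7% of a library's values were not whole, and they were rounded before testing. Estimated counts can share reads among similar genes. Symbols were found for 34582 of 34866 identifiers, and positions and lengths come from GENCODE M21.

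Genes kept by filterByExpr (minimum count 10, minimum total 15) were fitted with TMM factors by edgeR 4.0.16 in R 4.3.3 (robust quasi-likelihood F test, two-sided, Benjamini-Hochberg over 13718 genes, threshold 0.05). The SE is the log2 fold change divided by the square root of F. Alternatives were other scalings, DESeq2 1.42.0, limma-voom (limma 3.58.1), no filter, a threshold of 0.01, a replicate block and leaving out each library. No 2 libraries of a group agreed within sampling noise (chi-square per degree of freedom from 41.8 to 107).

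Named were each called synthetase, the 6 uncalled with the largest difference, Eprs, Gars, Kars and Wars, and of each related list up to 4 called genes by p, or 2 where none was called. Others were chosen after their values were seen. The members and the lists were chosen with earlier results of these data known. The promoter window of 1 synthetase is not reported here.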

Additional observations from a re-analysis of the deposited data

How the results depend on the processing

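No synthetase changed sign while called, and Ears2 kept its call with RLE factors, upper-quartile factors, library size only, DESeq2, limma-voom and no filter on low counts (adjusted p from 0.0192 to 0.0426). The lower mitochondrial calls numbered 1 in the analysis reported, 2 with upper-quartile factors, 3 with library size only, 0 at an adjusted p of 0.01, and 0 to 1 when each library was left out. With library size only, 1 cytosolic enzyme, Farsb, was called lower and Rars2 joined Ears2 and Hars2. Over all genes 2293 were called, 825 at an adjusted p of 0.01 and 1212 to 2574 when each library was left out (1484 without vehicle replicate 1, 1308 without vehicle replicate 2, 1212 without the unnumbered vehicle replicate, 1509 without iD1 replicate 2 and 1231 without iD1 replicate 3).

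Replicate numbers 1 and 2 occur in both groups. The correlation of deviations between same-numbered libraries was 0.169 for number 1 and -0.128 for number 2. No like values for differently numbered libraries were set beside these, so whether equal numbers mark a pairing cannot be told. A fit with the replicate number as a block could use only those 4 libraries. In the replicate block fit 0 mitochondrial enzymes and 768 of all genes were called, Ears2 had a log2 fold change of -0.47 (adjusted p = 0.288) and Lars2 one of -0.10. This fit holds fewer libraries than the one reported.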
